A study of Homo sapiens with 6 samples.

Results

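Matricellular proteins and fibronectin were described here by 9 genes, THBS1, TNC, SPP1, FN1, SPARC, TGFBI, CD44, LGALS1 and FSTL1, taken by name from a table of 66351 gene models. THBS1, TNC and SPP1 were put on the list because they had been seen to fall in these libraries, so their differences are a description and carry no test. The other 6 genes were not chosen on a fall and were tested. They and the lists of related genes below were still drawn up with earlier results of these data known. Shares over all tested genes are therefore only a backdrop to their counts. RNA was sequenced from SAS-Fucci cells, a human tongue squamous cell carcinoma line with a fluorescent reporter of the cell cycle (Fucci), after IGFBP-3 knockdown. There were 2 libraries of cells given IGFBP3 siRNA #1 for 48 h, 2 of cells given the same siRNA for 72 h, and 2 of cells given a non-targeted control siRNA (Cont). The 72 h cells had received fresh medium after 48 h. The sources used here set control beside knockdown cells at 72 h without saying outright when the control cells were harvested. Knockdown, time in culture and fresh medium thus cannot be told apart in differences between the times, nor wherever Cont was harvested at another time. Only 1 IGFBP3 siRNA was sequenced, so effects of IGFBP-3 loss and of that siRNA's own sequence cannot be told apart. No source states that replicate libraries are from different cultures, so the p-values measure only the spread between these libraries, which may be technical.

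Matricellular proteins are secreted into the matrix but do not build its fibers. They bind integrins, syndecans, CD47 or CD44 at the cell surface together with collagens and growth factors, and they loosen or strengthen the hold of a cell on its matrix. They are known from wound edges and the fronts of carcinomas, where they accompany cell movement, and fibronectin is the fibril-forming protein to which several of them bind.

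IGFBP3, the target of the siRNA, stood at 0.261 and 0.258 FPKM at 48 h and at 1.52 and 3.25 FPKM at 72 h, against 24.7 and 23.1 FPKM in Cont. FPKM counts assigned reads relative to gene model length and to library size. The libraries held 17430737 to 21579558 assigned reads. The root mean square difference of log2(FPKM + 1) was 0.202 to 0.210 within groups and 0.320 to 0.389 between knockdown and Cont libraries, and no library stood apart from its group. All 9 listed markers of squamous epithelial cells reached 1 FPKM in at least 2 libraries. Of the 8 fibroblast markers only COL1A1 did so, of the 6 macrophage markers only CSF1R, at 1.33 and 1.57 FPKM in Cont, and of the 4 endothelial markers none. CD68, CD163 and KDR were listed at 0 in every library, and the summed FPKM of the macrophage markers was at most 1.13 at 48 h and 1.45 at 72 h, against 1.64 to 2.33 in Cont. The summed FPKM of the epithelial markers was itself lower at 48 h, at 491.4 to 533.9. It was 788.1 to 803.7 at 72 h and 873.9 to 1015 in Cont. KRT5, KRT17 and SFN weighed most in this lower sum. Their means were 121.7, 37.4 and 190.3 FPKM at 48 h, against 272.3, 149.8 and 310.8 FPKM in Cont. TP63, CDH1, EPCAM and DSG3 were not called at 48 h by the test described below. The part of the lower marker sum in the results below was not tested. In bulk RNA, fewer cells of a type and less RNA per cell cannot be told apart.

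The promoters of the 3 genes that were chosen on their falls are shown first, since their lower levels are what put them on the list. Each is the RefSeq sequence of GRCh38.p14 from 250 bases before to 50 bases after the gene's start, read 5′ to 3′ on the gene's own strand, and capitals mark matches to 5 short motifs searched on both strands. The motifs were GGAATG (TEAD factors), CAGACA (SMAD factors, TGTCTG when on the other strand), GGGCGG (a GC box, CCGCCC on the other strand), TGANTCA (AP-1) and TATAAA (a form of the TATA box). THBS1 lies at chr15:39580829-39581128 on the + strand, TNC at chr9:115118108-115118407 on the - strand and SPP1 at chr4:87975464-87975763 on the + strand.
THBS1: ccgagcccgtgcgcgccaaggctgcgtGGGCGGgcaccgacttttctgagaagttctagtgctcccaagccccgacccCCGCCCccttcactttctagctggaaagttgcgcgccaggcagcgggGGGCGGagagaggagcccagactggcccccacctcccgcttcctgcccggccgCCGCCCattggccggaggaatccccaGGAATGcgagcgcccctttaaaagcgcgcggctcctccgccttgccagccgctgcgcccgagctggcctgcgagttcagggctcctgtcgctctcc
TNC: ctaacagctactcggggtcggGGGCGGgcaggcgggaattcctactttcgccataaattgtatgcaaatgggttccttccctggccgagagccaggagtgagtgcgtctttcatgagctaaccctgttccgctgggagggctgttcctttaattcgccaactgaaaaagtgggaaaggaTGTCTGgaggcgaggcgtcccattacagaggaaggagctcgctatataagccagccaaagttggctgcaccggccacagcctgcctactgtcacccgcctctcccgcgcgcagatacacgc
SPP1: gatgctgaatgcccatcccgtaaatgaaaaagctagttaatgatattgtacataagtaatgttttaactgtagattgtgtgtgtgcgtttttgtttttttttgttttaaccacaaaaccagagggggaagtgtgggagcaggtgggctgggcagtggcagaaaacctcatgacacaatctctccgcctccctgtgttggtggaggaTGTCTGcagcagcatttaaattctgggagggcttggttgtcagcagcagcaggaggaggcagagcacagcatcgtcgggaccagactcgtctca

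The THBS1 promoter had 70.0% G and C, against a median of 58.7% over all 35116 promoters, and held 4 GC boxes and 1 TEAD match, which began 46 bases before the start. GC boxes were found in 45.0% and TEAD matches in 14.0% of all promoters. The TNC promoter held 1 GC box and 1 SMAD match, which began 71 bases before the start. The SPP1 promoter held 1 SMAD match, 44 bases before the start, and no other of the 5 motifs. SMAD matches were found in 16.9% of all promoters, and of the 8 genes with a promoter in the RefSeq table only TNC and SPP1 had one. No matches of different motifs overlapped in these 3 windows. None of the 8 promoters held the exact letters TGANTCA or TATAAA, which 7.71% and 11.5% of all promoters did, a statement about these windows and letters alone. Other forms of the TATA box were not searched, and the TNC window holds tatataag, which these letters do not match. For TNC and SPP1 the RefSeq start lies inside the gene model of the table. LGALS1 was not among the matched genes.

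THBS1 was the most abundant of the 9 mRNAs in Cont cells, and it was far lower in all 4 knockdown libraries. THBS1 (ENSG00000137801, chromosome 15 from 39581079 to 39599466, + strand) encodes thrombospondin-1, a secreted adhesion-modulating glycoprotein that binds CD47 and CD36 and can activate latent TGF-β. It had 174.9 and 155.2 FPKM at 48 h and 161.9 and 182.1 FPKM at 72 h, against 397.7 and 382.1 FPKM in Cont. The knockdown libraries of both times shared 1 range, and every one of them lay far below both Cont libraries. The means were 42.3% of the Cont mean at 48 h and 44.1% at 72 h, with log2 fold changes of −1.24 and −1.18 (SE 0.10 each) on the log2(FPKM + 1) scale used for all fold changes here. Between the times the difference was 0.06 (SE 0.10), smaller than its error. In Cont, THBS1 ranked 81 among all named genes by FPKM.

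TNC (ENSG00000041982, chromosome 9 from 115019575 to 115118257, - strand) encodes tenascin-C, a large glycoprotein that is made at wound edges and in tumor stroma and that weakens adhesion to fibronectin. Its level was low even in Cont, with 0.873 and 0.799 FPKM at 48 h and 0.625 and 0.791 FPKM at 72 h, against 4.12 and 3.74 FPKM in Cont. These values stand for 155 and 164 assigned reads at 48 h, 130 and 172 at 72 h, and 819 and 657 in Cont. The gap between the groups is thus carried by many reads although the FPKM of this long gene model is small. The means were 21.3% and 18.0% of the Cont mean at 48 h and 72 h. On the log2(FPKM + 1) scale the differences were −1.42 and −1.53 (SE 0.10 each). That scale understates the change of a low gene, and on the assigned reads alone (limma with voom) the log2 fold changes were −2.23 and −2.48.

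SPP1 (ENSG00000118785, chromosome 4 from 87975650 to 87983426, + strand) encodes osteopontin, a phosphorylated glycoprotein that binds integrins with an αv chain and CD44. It was close to the limit of what was counted, with 0.245 and 0.339 FPKM at 48 h and 0.292 and 0.160 FPKM at 72 h, against 1.85 and 1.66 FPKM in Cont. The assigned reads were 10 and 16 at 48 h, 14 and 8 at 72 h, and 85 and 67 in Cont. SPP1 and TNC reached the minimum of 1 FPKM in 2 libraries only through the Cont libraries, so they could enter the tested genes only by being higher there. The SPP1 means were 16.6% and 12.9% of the Cont mean at 48 h and 72 h. Its log2 fold changes were −1.09 and −1.17 (SE 0.12 each) on FPKM + 1, and −2.55 and −2.97 on the assigned reads.

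**Figure D1:**
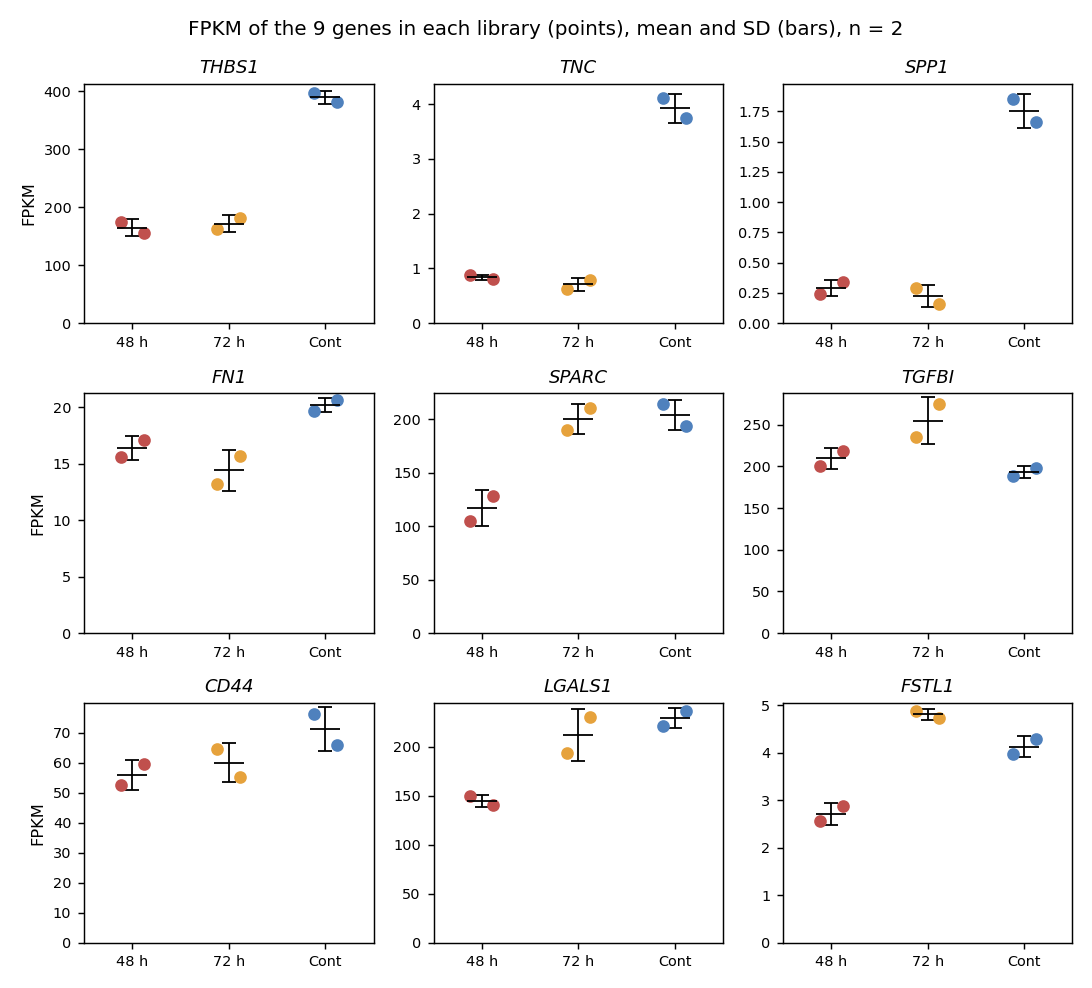
FPKM of each of the 9 genes (y axis, linear from 0 with its own range in each panel) in the 2 libraries of 48 h, 72 h and Cont (points), with mean and SD (bars). THBS1, TNC and SPP1 are low at both times, while SPARC, LGALS1 and FSTL1 are low at 48 h alone, with LGALS1 at 149.2 and 140.7 FPKM at 48 h, 193.0 and 230.6 FPKM at 72 h and 221.4 and 236.1 FPKM in Cont.

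The genes whose pattern over the 6 libraries was most like that of these 3 were sought among all tested genes outside the list, by the root mean square difference of log2(FPKM + 1) after each gene was set to its own Cont mean. For THBS1 they were SMIM3 (0.0746), TMEM65 (0.0865) and SINHCAF (0.0902). For TNC they were DNAJC6 (0.147), PTGES3P1 (0.161) and KCTD12 (0.164). For SPP1, SINHCAF (0.0761) and MFSD6 (0.0901) were the nearest. SINHCAF, a subunit of a histone deacetylase complex, was thus near both THBS1 and SPP1 by this measure, which is a description with no test. The added 1 FPKM shrinks the changes of low genes such as SPP1, TNC, SMIM3 and TMEM65, so these genes are neighbors on this scale only. SMIM3 had means of 1.31 FPKM at 48 h and 1.38 FPKM at 72 h, against 4.66 FPKM in Cont. TMEM65 had 1.31 and 1.68 FPKM, against 4.92 FPKM in Cont. Both had larger relative falls than THBS1, whose means were 42.3% and 44.1% of its Cont mean. SINHCAF had means of 72.9 FPKM at 48 h and 70.7 FPKM at 72 h, against 165.1 FPKM in Cont. That is a smaller relative fall than the one of SPP1, to 16.6% and 12.9% of its Cont mean.

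Among the 6 genes not chosen on a fall, 3 were lower at 48 h than in Cont, none was higher and 3 did not pass the test (limma, Benjamini-Hochberg adjusted p under 0.05 over 11214 genes). Over all tested genes, 16.5% were called lower and 8.38% higher at 48 h. The median log2 fold change of the 6 was −0.40, beside −0.04 over all tested genes. The genes that fell were SPARC, LGALS1 and FSTL1, and none of these 3 passed the test at 72 h.

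SPARC (ENSG00000113140, chromosome 5 from 151661096 to 151686975, - strand) encodes osteonectin, a collagen-binding glycoprotein that lets cells round up and helps collagen fibrils to form. It had 105.3 and 128.7 FPKM at 48 h and 190.4 and 210.3 FPKM at 72 h, against 214.1 and 194.0 FPKM in Cont. At 48 h both libraries lay below every other library, while the 72 h and Cont ranges overlapped. The log2 fold change was −0.80 (SE 0.12, adjusted p = 0.00584 by limma) at 48 h and −0.03 (95% confidence interval −0.31 to 0.25, adjusted p = 0.910) at 72 h. The fall at 48 h was called in all 15 alternatives tried, with an adjusted p of at most 0.0411. The direct comparison of the times gave a level higher by 0.78 (SE 0.12, adjusted p = 0.0295) at 72 h.

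LGALS1 (ENSG00000100097, chromosome 22 from 37675636 to 37679802, + strand) encodes galectin-1, a lectin that binds β-galactosides on integrins, laminin and fibronectin. Its FPKM was 149.2 and 140.7 at 48 h and 193.0 and 230.6 at 72 h, against 221.4 and 236.1 in Cont. The 48 h libraries were again the lowest of the 6, and 1 of the 72 h libraries lay within the Cont range. The log2 fold change was −0.65 (SE 0.10, adjusted p = 0.00746 by limma) at 48 h and −0.12 (95% confidence interval −0.36 to 0.13, adjusted p = 0.505) at 72 h. Between the times LGALS1 was higher at 72 h by 0.54 (SE 0.10, adjusted p = 0.0439). Without 48 h replicate 2, the fall at 48 h was −0.61 with an adjusted p of 0.0541.

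FSTL1 (ENSG00000163430, chromosome 3 from 120392293 to 120450993, - strand) encodes a secreted follistatin-like glycoprotein that shares a domain with SPARC and binds BMP ligands. It was expressed at a far lower level, with 2.56 and 2.88 FPKM at 48 h and 4.88 and 4.73 FPKM at 72 h, against 3.97 and 4.29 FPKM in Cont. The 48 h libraries lay below, and the 72 h libraries above, both Cont libraries. Its log2 fold change was −0.46 (SE 0.08, adjusted p = 0.00965 by limma) at 48 h and 0.18 (95% confidence interval −0.01 to 0.37, adjusted p = 0.191) at 72 h. Of the 6 genes FSTL1 had the smallest adjusted p between the times, 0.0185, with a difference of 0.64 (SE 0.08). Without 48 h replicate 1, its fall at 48 h was −0.40 with an adjusted p of 0.0505.

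From 48 h to 72 h, 3 of the 6 genes were higher and none lower, where 2.19% of all tested genes were called higher and 1.86% lower. The median difference of the 6 was 0.41, beside −0.01 over all tested genes. These 3 calls rest on all 4 knockdown libraries. The SPARC difference had an adjusted p of 0.119 without 48 h replicate 1, 0.0637 without 48 h replicate 2, 0.0622 without 72 h replicate 1 and 0.155 without 72 h replicate 2. The LGALS1 values in the same order were 0.144, 0.183, 0.0521 and 0.187, and those of FSTL1 were 0.0933, 0.0672, 0.0612 and 0.106. The 3 genes stayed higher at 72 h in each of these fits.

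At 72 h, 1 of the 6 genes was lower than in Cont, 1 was higher and 4 did not pass the test, where 9.51% of all tested genes were called lower and 3.56% higher. Their median log2 fold change was −0.07, beside −0.05 over all tested genes. The gene that was lower was FN1 and the one that was higher was TGFBI. Both encode adhesion proteins with an integrin-binding RGD motif.

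FN1 (ENSG00000115414, chromosome 2 from 215360440 to 215436073, - strand) encodes fibronectin. It had 15.6 and 17.1 FPKM at 48 h and 13.2 and 15.7 FPKM at 72 h, against 19.7 and 20.6 FPKM in Cont. All 4 knockdown libraries lay below both Cont libraries. Its log2 fold change was −0.46 (SE 0.10, adjusted p = 0.0302 by limma) at 72 h, and at 48 h it was −0.29 (SE 0.10, adjusted p = 0.0756), which did not pass. The times were not told apart, with a difference of −0.17 (adjusted p = 0.314). The 72 h adjusted p was 0.0946 without Cont replicate 1, 0.114 without Cont replicate 2 and 0.119 without 72 h replicate 1.

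TGFBI (ENSG00000120708, chromosome 5 from 136028988 to 136063818, + strand) encodes a protein induced by TGF-β that links integrins to collagens. Its level was 200.3 and 218.9 FPKM at 48 h and 235.5 and 274.7 FPKM at 72 h, against 188.6 and 198.7 FPKM in Cont. It was the only one of the 9 genes with every knockdown library above both Cont libraries. On the log2 scale the fold change was 0.11 (95% confidence interval −0.13 to 0.35, adjusted p = 0.443 by limma) at 48 h. At 72 h it was 0.39 (SE 0.10, adjusted p = 0.0490 by limma). The 72 h call sat at the threshold and was made in 5 of 15 alternatives. It was lost without any 1 of the libraries compared, with an adjusted p of 0.162 without Cont replicate 1, 0.110 without Cont replicate 2, 0.0692 without 72 h replicate 1 and 0.208 without 72 h replicate 2.

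CD44 (ENSG00000026508, chromosome 11 from 35138882 to 35232402, + strand) encodes the cell-surface receptor of hyaluronan, which osteopontin also binds. It had 52.5 and 59.5 FPKM at 48 h and 64.6 and 55.4 FPKM at 72 h, against 76.3 and 65.9 FPKM in Cont. Every knockdown library was below both Cont libraries though the Cont libraries themselves lay apart. Neither time passed the test. On the log2 scale the fold change was −0.34 (95% confidence interval −0.61 to −0.07, adjusted p = 0.0726 by limma) at 48 h and −0.24 (−0.52 to 0.03, adjusted p = 0.215) at 72 h. These are values of the whole gene, and splice forms of CD44 were not measured.

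**Figure D2:**
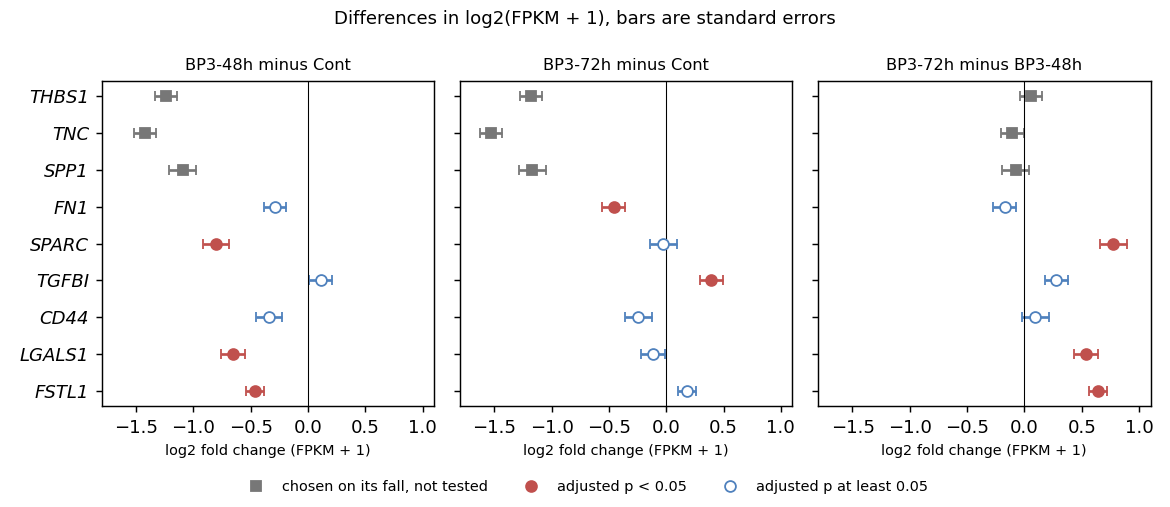
Differences in log2(FPKM + 1) (x axis) of the 9 genes (rows) for 48 h minus Cont, 72 h minus Cont and 72 h minus 48 h, with standard errors as bars. Gray squares are the 3 genes chosen on their falls, which were not tested, and red points the calls at an adjusted p under 0.05, among them SPARC at −0.80 at 48 h and 0.78 between the times.

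The order of the 9 genes by FPKM differed between the groups. At 48 h TGFBI led with 209.6 ± 13.1 FPKM (mean ± S.D., n = 2), followed by THBS1 with 165.1 ± 14.0, LGALS1 with 144.9 ± 5.99 and SPARC with 117.0 ± 16.6. At 72 h TGFBI had 255.1 ± 27.7 FPKM, LGALS1 211.8 ± 26.6, SPARC 200.4 ± 14.0 and THBS1 172.0 ± 14.3. In Cont THBS1 led with 389.9 ± 11.1 FPKM, ahead of LGALS1 with 228.8 ± 10.3, SPARC with 204.1 ± 14.2 and TGFBI with 193.6 ± 7.19. The ranges of SPARC and TGFBI overlapped in Cont, as did those of LGALS1 and SPARC at 72 h, so these neighbors were not told apart. CD44, FN1, FSTL1, TNC and SPP1 followed in this order in all 3 groups, with FSTL1 and TNC overlapping in Cont. THBS1 made up 24.9% and 21.4% of the summed FPKM of the 9 genes at 48 h and 18.7% in both libraries at 72 h, against 35.3% and 34.5% in Cont.

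Relatives of these proteins were counted from a list of 37 genes, of which 13 were expressed highly enough to be tested. At 48 h 7 were lower and none higher (median log2 fold change −0.50), and at 72 h 3 were lower and 1 higher (median −0.28). The shares over all tested genes were 16.5% (lower) and 8.38% (higher) at 48 h, with 9.51% and 3.56% at 72 h. Over the alternatives 4 to 8 relatives were called lower at 48 h and 0 to 4 at 72 h. The lowest counts came without a filter on low values, at 48 h also without 48 h replicate 2. FBLN2 had no 48 h library at 1 FPKM and could be tested only through the other groups. The 7 were THBS2, LGALS3, LGALS8, FBLN1, FBLN2, EFEMP1 and AGRN, that is, a second thrombospondin, galectins, fibulins and agrin. FBLN1, a fibulin that binds fibronectin, had 1.92 and 2.00 FPKM at 48 h and 2.99 and 3.18 FPKM at 72 h, against 4.20 and 3.87 FPKM in Cont (log2 fold change −0.77 at 48 h, adjusted p = 0.00229 by limma). LGALS3, which encodes galectin-3, had 27.5 and 26.1 FPKM at 48 h and 45.9 and 47.5 FPKM at 72 h, against 41.7 and 39.9 FPKM in Cont (−0.59 at 48 h, adjusted p = 0.00320). At 72 h LGALS3 lay above both Cont libraries without passing the test (0.19, adjusted p = 0.121), and it was higher at 72 h than at 48 h by 0.78 (adjusted p = 0.0100).

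Other relatives were lower at both times. EFEMP1, a fibulin-like protein, had 9.52 and 9.77 FPKM at 48 h and 9.90 and 11.5 FPKM at 72 h, against 16.1 and 19.9 FPKM in Cont, with log2 fold changes of −0.83 (adjusted p = 0.00483 by limma) and −0.70 (adjusted p = 0.0143). THBS2, the closest relative of THBS1, had 11.8 and 12.5 FPKM at 48 h and 13.4 and 13.1 FPKM at 72 h, against 18.6 and 16.7 FPKM in Cont. Its log2 fold changes were −0.50 (adjusted p = 0.00664) and −0.39 (adjusted p = 0.0247), a smaller difference than the −1.24 and −1.18 of THBS1. LGALS8, another galectin, was lower, with −0.67 (adjusted p = 0.00958) and −0.73 (adjusted p = 0.0126). The abundant relatives CCN1 and CCN2, integrin ligands of the CCN family, did not pass, with log2 fold changes of −0.18 (adjusted p = 0.421) and −0.69 (adjusted p = 0.266) at 48 h. CCN2 was uneven within groups, with replicate 2 the higher in each, as in 13.1 and 27.0 FPKM at 72 h, against 15.8 and 33.8 FPKM in Cont. Leaving out 1 library ended several of these calls. LGALS8 at 48 h had an adjusted p of 0.0608 without 48 h replicate 2, and at 72 h 0.0574 without Cont replicate 1 and 0.0673 without 72 h replicate 2. EFEMP1 at 72 h had 0.0501 without Cont replicate 2 and 0.0726 without 72 h replicate 1. THBS2 at 72 h had 0.0998 without Cont replicate 1, 0.0945 without 72 h replicate 1 and 0.112 without 72 h replicate 2.

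Of 25 listed receptors of the 9 proteins, 16 were tested. At 48 h 4 were lower and 3 higher (median −0.06, beside 16.5% lower and 8.38% higher over all tested genes), and at 72 h 3 were lower and 1 higher (9.51% and 3.56% over all). Over the alternatives 4 to 5 receptors were called lower and 2 to 4 higher at 48 h, and 1 to 3 lower and 0 to 3 higher at 72 h. CD47, the thrombospondin-1 receptor, had 5.25 and 4.61 FPKM at 48 h and 5.19 and 5.52 FPKM at 72 h, against 8.06 and 8.52 FPKM in Cont, and was lower, with log2 fold changes of −0.65 (adjusted p = 0.00367 by limma) and −0.55 (adjusted p = 0.0108). ITGAV, the αv integrin chain that binds osteopontin, fibronectin and TGFBI, had 7.39 and 6.59 FPKM at 48 h and 9.56 and 8.66 FPKM at 72 h, against 14.7 and 12.6 FPKM in Cont (−0.87, adjusted p = 0.00294, and −0.53, adjusted p = 0.0203). ITGB5, a β chain that pairs with ITGAV, went the other way at 48 h, with 13.6 and 15.1 FPKM at 48 h, against 7.86 and 9.26 FPKM in Cont (0.69, adjusted p = 0.00590), and did not pass at 72 h (−0.06, adjusted p = 0.718). ITGA5, the α chain of the main fibronectin receptor, was also higher at 48 h (0.30, adjusted p = 0.0216) and did not pass at 72 h (0.19, adjusted p = 0.119).

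SDC4, a syndecan that binds fibronectin and tenascin-C along with integrins, had the largest fold change of the tested receptors at 48 h. It had 40.4 and 44.9 FPKM at 48 h and 80.7 and 92.1 FPKM at 72 h, against 103.0 and 85.2 FPKM in Cont. Its log2 fold change was −1.12 (adjusted p = 0.00254 by limma) at 48 h and −0.12 (adjusted p = 0.552) at 72 h. EGFR, to which repeats of tenascin-C bind, was higher at both times, with 38.4 and 32.4 FPKM at 48 h and 35.8 and 34.3 FPKM at 72 h, against 23.4 and 20.7 FPKM in Cont (0.66, adjusted p = 0.00709, and 0.65, adjusted p = 0.0125). ITGA6, an integrin chain for laminins, was lower, at −0.43 at each time (adjusted p = 0.00775 and 0.0125). The most abundant receptors, CALR, ANXA2 and ITGA3, did not pass at either time, with adjusted p from 0.0684 to 0.549.

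ITGB5 and ITGA5 were not both called higher at 48 h in any fit without 1 of the libraries compared. The 48 h calls of CD47, ITGAV, SDC4, EGFR and ITGA6 held without each library in turn, whereas the 72 h calls did not. CD47 at 72 h had an adjusted p of 0.0554 without Cont replicate 2 and 0.0619 without 72 h replicate 1. ITGAV had 0.0863 without Cont replicate 1, 0.0611 without 72 h replicate 1 and 0.0984 without 72 h replicate 2. EGFR had 0.0591 without Cont replicate 2, 0.0679 without 72 h replicate 1 and 0.0561 without 72 h replicate 2. ITGA6 had 0.0578 without Cont replicate 1, 0.0708 without 72 h replicate 1 and 0.0584 without 72 h replicate 2.

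**Figure D3:**
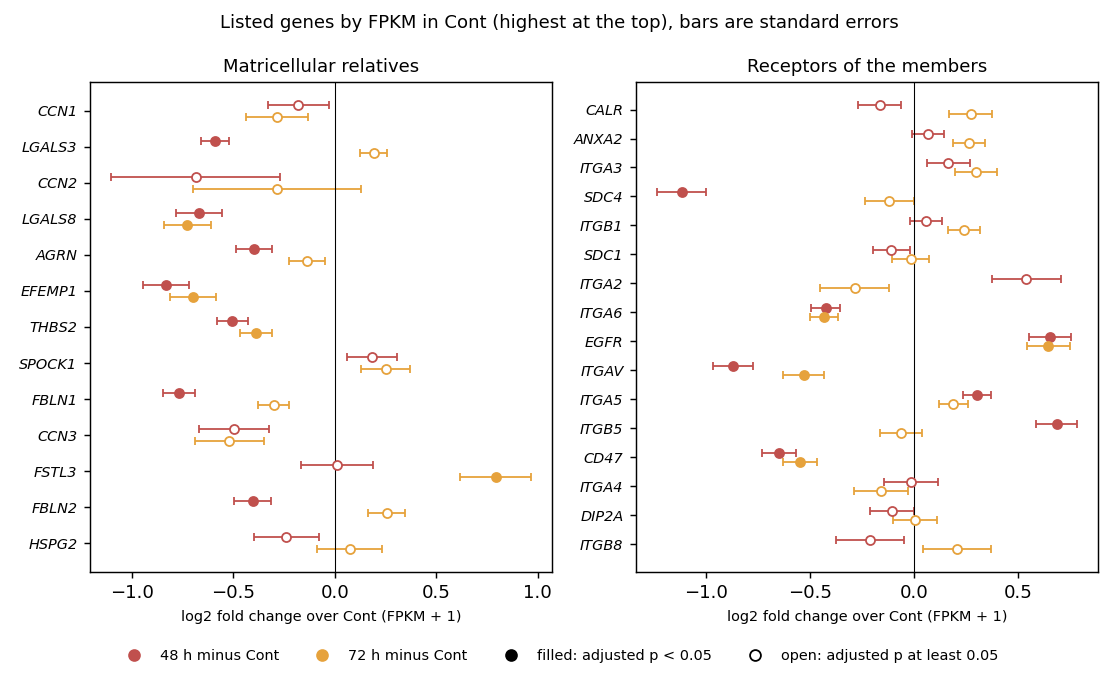
Log2 fold change of FPKM + 1 over Cont (x axis) of the 13 tested relatives (left) and 16 tested receptors (right), ordered by FPKM in Cont, at 48 h (red) and 72 h (yellow) with standard errors as bars, where filled points have an adjusted p under 0.05. Filled points among the relatives lie to the left of 0 except for FSTL3 at 72 h, while receptors lie on both sides, from SDC4 at −1.12 to ITGB5 and EGFR above 0.

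CD44 was set beside 19 genes of hyaluronan and of CD44's partners, of which 11 were tested. At 48 h 4 were lower (CEMIP2, RDX, NF2 and ESRP1) and 1 was higher (HAS3, a hyaluronan synthase), with a median of −0.27, and at 72 h 3 were lower (CEMIP2, NF2 and SRGN) and none higher, with a median of −0.17. Over all tested genes these shares were 16.5% (lower) and 8.38% (higher) at 48 h, with 9.51% and 3.56% at 72 h. HAS3 had no Cont library at 1 FPKM and passed the filter through knockdown libraries alone, and its call was lost without the filter. The HAS3 call was also lost with the unnamed models, with the replicate block and without any 1 of the libraries compared. NF2 at 48 h had an adjusted p of 0.0536 without Cont replicate 1 and 0.0596 without 48 h replicate 1, and RDX 0.0678 without 48 h replicate 2. At 72 h the calls of NF2 and SRGN were lost whichever library was left out, with adjusted p of 0.0708 to 0.0886 and 0.0888 to 0.123. CEMIP2, a cell-surface protein linked to hyaluronan breakdown, had 1.23 and 1.28 FPKM at 48 h and 0.979 and 0.951 FPKM at 72 h, against 2.79 and 2.32 FPKM in Cont. It had no 72 h library at 1 FPKM and passed the filter only through the 48 h and Cont libraries, where it is higher. Its log2 fold changes were −0.65 (adjusted p = 0.00637 by limma) and −0.85 (adjusted p = 0.00573), and it stayed called at both times whichever library was left out. ESRP1, an epithelial splicing factor that acts on CD44 exons, had 33.5 and 28.5 FPKM at 48 h and 40.5 and 42.1 FPKM at 72 h, against 51.7 and 48.5 FPKM in Cont. It was lower at 48 h (−0.68, adjusted p = 0.00465) and did not pass at 72 h (−0.27, adjusted p = 0.105).

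Collagens and the enzymes that modify and cross-link them gave 36 listed and 27 tested genes. At 48 h 7 were lower and 1 higher, and at 72 h 5 were lower and 3 higher, with medians of 0.02 and −0.01, beside 16.5% lower and 8.38% higher over all tested genes at 48 h and 9.51% and 3.56% at 72 h. The 7 lower at 48 h were 3 without a filter and 3 with a minimum of 5 FPKM, and the 5 lower at 72 h were 0 and 3. COL1A1 passed the filter only through the Cont libraries, where it is higher, and LOXL4 only through the 72 h libraries. Leaving out 1 library gave 3 to 4 lower at 48 h and 0 to 1 at 72 h. COL18A1, a basement membrane collagen, had 2.40 and 2.74 FPKM at 48 h and 5.10 and 4.62 FPKM at 72 h, against 6.97 and 6.93 FPKM in Cont, and was lower, at −1.16 (adjusted p = 8.57e-04 by limma) at 48 h and −0.44 (adjusted p = 0.0205) at 72 h. COL5A1, a chain of the fibrillar collagen V, moved otherwise, with 5.25 and 5.95 FPKM at 48 h and 10.2 and 9.83 FPKM at 72 h, against 5.18 and 5.66 FPKM in Cont (0.04, adjusted p = 0.756, and 0.78, adjusted p = 0.00444). COL5A2, the partner chain of COL5A1, was lower, at −0.77 (adjusted p = 0.00384) and −0.53 (adjusted p = 0.0203). The 72 h calls of COL18A1 and COL5A2 were lost without any 1 of the libraries compared, with adjusted p of 0.0607 to 0.101 and 0.0659 to 0.1003, while COL5A1 kept its call in each case.

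Genes that share ground with the 9 were also looked at, since how the counting treated strands is not given in the sources used here. THBS1 overlaps FSIP1 on the other strand, CD44 overlaps CD44-AS1 and SPARC overlaps CLMAT3, and these partners had at most 0.270, 0.0970 and 0.0640 FPKM. MIR198, within FSTL1, was listed at 0 in every library. TNC overlaps DEC1 on the other strand, which was not analysed here.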

How the data were processed

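The authors isolated total RNA on columns, sequenced it by DNBSEQ and mapped reads using Hisat2 2.0.1. The submitters' notes also list GRCh38, HTSeq 0.6.1 and DESeq2 but give no roles, and the annotation release and strand setting are not given in the sources used here. The deposited values are FPKM per gene model as the authors made them, and were used as deposited. Low FPKM were whole multiples of a step in 100% of the 18366 to 19650 values checked per library (within 0.1 read), which gave the assigned reads.

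Tests covered the 11214 named gene models, all 9 members included, that reached 1 FPKM in 2 or more of the 6 libraries. The 6831 unnamed models were left out. Log2(FPKM + 1) was fitted over all 6 libraries by limma 3.58.1 (R 4.3.3) using a mean for each group and a variance trend, and p-values were adjusted by Benjamini-Hochberg over all genes tested (threshold 0.05). With 2 libraries a side, the smallest two-sided p of an exact permutation test is 0.333. Genes named are the members, IGFBP3, up to 3 called genes of smallest p per list and comparison with Cont, the 3 most abundant relatives and receptors, and the 3 genes most alike to THBS1, TNC and SPP1 each, of which 1 is not reported here. From these, the text gives values for a part. FSTL3, ITGA5, ITGB5, COL1A1, LOXL4, the marker genes named and the genes overlapping the members lie outside this rule and were chosen after their values were seen, as were the full lists of called relatives and CD44 partners. The members and lists were chosen with earlier results of these data known. The alternatives were other pseudocounts, filters and scalings, the unnamed models, the compared groups alone, a replicate block, no variance trend, voom on the assigned reads, and each library left out in turn. With 1 library of a group left out, the lone library was assumed to vary like the others. Promoters came from a RefSeq table (GRCh38.p14), which matched 8 of the 9 members. A planned look at the members' protein sequences was not run. Scripts used Python 3.11.15, numpy 2.4.6 and pandas 2.3.3.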

Additional observations from a re-analysis of the deposited data

Results flagged for a closer look

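For 10 of the genes chosen by the naming rule or described in detail, the level at 72 h differed from that at 48 h. This is the direct comparison of the times in limma (72 h minus 48 h, log2(FPKM + 1)). It has no control cells for each time, so the knockdown, time in culture and fresh medium cannot be told apart in it. Of the listed matricellular genes, SPARC was higher at 72 h by 0.78 (adjusted p = 0.0295), LGALS1 by 0.54 (adjusted p = 0.0439) and FSTL1 by 0.64 (adjusted p = 0.0185). Among relatives and receptors, LGALS3 was higher by 0.78 (adjusted p = 0.0100), FBLN1 by 0.47 (adjusted p = 0.0352) and SDC4 by 1.00 (adjusted p = 0.0164). The collagen genes COL18A1 and COL5A1 were higher by 0.72 (adjusted p = 0.0161) and 0.74 (adjusted p = 0.0152). IGFBP3 itself was higher by 1.38 (adjusted p = 0.0327), at 1.52 and 3.25 FPKM at 72 h, against 0.261 and 0.258 FPKM at 48 h. The added 1 FPKM shrinks this difference, which was 3.08 on the assigned reads (limma with voom). AC037198.1 differed in the other direction, by −0.47 (adjusted p = 0.0327). Outside the naming rule, the lists held further calls between the times, of ITGB5 at −0.75 (adjusted p = 0.0237), ITGA2 at −0.83 (adjusted p = 0.0483), COL7A1 at −0.58 (adjusted p = 0.0330), COL12A1 at −0.51 (adjusted p = 0.0478), FBLN2 at 0.66 (adjusted p = 0.0257) and BMP1 at 0.60 (adjusted p = 0.0295). In all, 3 of 13 tested relatives were higher and 0 lower at 72 h than at 48 h. Of 16 tested receptors 1 was higher and 2 lower, and of 27 tested collagen genes 3 were higher and 2 lower. Of 11 tested hyaluronan genes and CD44 partners 0 were higher and 0 lower. Over all tested genes, 2.19% were called higher and 1.86% lower. The call of each of the first 10 genes was lost without at least 1 of the 4 knockdown libraries, and their directions held without each of them. The further calls outside the naming rule were all lost without 48 h replicate 1, as they were without 48 h replicate 2 or 72 h replicate 2. FBLN2 had no 48 h library at 1 FPKM and passed the filter only through the other groups, where it is higher.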

How the results depend on the processing

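At 48 h 1845 genes were lower and 940 higher. Without a filter these were 1009 and 423, with a minimum of 5 FPKM 1224 were lower, and with 1 library left out 728 to 1052 and 295 to 490. At 72 h 1066 were lower and 399 higher, against 274 and 97 without a filter, 680 lower at 5 FPKM, 675 lower with quantile normalization, and 284 to 423 and 92 to 138 with 1 library left out. Quantile normalization moved the split to 1419 lower and 1375 higher at 48 h and to 675 and 552 at 72 h. Between the times 209 were lower and 246 higher at 72 h, against 8 and 10 without a filter, 37 and 61 with unnamed models, 103 and 147 on the compared groups alone, 554 and 599 with voom, and 0 to 61 and 0 to 89 with 1 library left out. Both counts were 0 by limma without 48 h replicate 1, where all 6 libraries gave 2838 genes at an unadjusted p under 0.05. With the replicate block the counts were 1669 and 848 at 48 h, 849 and 314 at 72 h, and 73 and 104 between the times, and calls were gained at 48 h by FN1 (adjusted p = 0.0485) and CCN2 (0.0345) and lost by LGALS1 (0.0602), FBLN1 (0.0549) and AC037198.1 (0.0518) between the times and by AC037198.1 at 72 h (0.0605). Deviations of same-numbered libraries correlated at −0.00 (48 h and Cont), 0.16 (72 h and Cont) and −0.12 (72 h and 48 h). These values over all tested genes cannot settle whether same-numbered libraries share a culture or batch. With voom the calls were 2141 and 1180 at 48 h and 1412 and 570 at 72 h. Causes of these shifts were not tested.

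Of 1554 values of 35 genes under alternatives, 1375 stayed on their side of the threshold or within their spread, 141 lost a call (90 by leaving out a library), 14 gained one, 24 moved and 0 reversed a call. SPARC, LGALS1 and FSTL1 at 48 h were called in 15 of 15, 14 of 15 and 13 of 14 alternatives, FN1 at 72 h in 10 of 15. Of 360 counts over lists, 264 were within 1.5 times, 83 lower and 13 higher.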

Other observations

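Inside the transcribed region of THBS1 lies AC037198.1 (ENSG00000276107, chromosome 15 from 39586561 to 39587293), a sense intronic model on the same strand whose exons do not overlap those of THBS1. It was named after its values were seen. It had 8.75 and 8.98 FPKM at 48 h and 6.48 and 5.82 FPKM at 72 h, against 4.84 and 4.70 FPKM in Cont. These values stand for 113 and 134 assigned reads at 48 h, 98 and 92 at 72 h, and 70 and 60 in Cont. Every knockdown library was thus higher than both Cont libraries, whereas THBS1 was lower in each of them. The log2 fold change was 0.77 (SE 0.07, adjusted p = 0.00190 by limma) at 48 h and 0.31 (SE 0.07, adjusted p = 0.0420) at 72 h. At 48 h it was called in all 15 alternatives, and at 72 h in 5 of 15 with no call when any 1 library was left out.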
